A study of Rattus norvegicus with 4 samples.

Results

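The cells described here are blood T cells of rats whose droplet barcodes held almost no mitochondrial RNA. They were chosen among barcodes with at least 500 UMIs (unique molecular identifiers, 1 per captured RNA molecule) and at least 200 genes. A member had at least 2 UMIs of the CD3 genes Cd3e, Cd3d and Cd3g, no UMI of the B cell genes Cd79b and Ms4a1, and under 1% of its UMIs from genes named Mt-, the 13 protein-coding genes of the mitochondrial genome. This rule found 621 cells among 26422 T cells and 47436 barcodes of that size. They were set against 24087 T cells with 2 to 8% Mt- UMIs. The members were thus chosen by the measured values of the Mt-, CD3 and B cell genes, which are given as a description, with no test.

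The study gave umbilical cord mesenchymal stromal cells (MSC) to rats with a spinal cord injury (SCI) made by Allen's weight-drop method and sequenced single cells from blood. The 4 groups each had 1 library. MSC-i.t rats received 10000000 cells per kg by the intrathecal route, into the fluid around the spinal cord. MSC-i.v rats received 30000000 cells per kg by vein, and in both treated groups the cells were given at 72 hours and again at 7 days after injury. SCI rats had the injury without cells, and Sham was the fourth group. The design text counts 40 rats, 10 per group. The number of rats behind each library and the day of the blood draw are not given in the sources used here, so ratios between libraries below compare single libraries, with intervals that cover counting error only.

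Mitochondria carry their own small genome, transcribed inside the organelle, and its mRNAs encode subunits of the respiratory chain, while the remaining subunits are encoded in the nucleus and translated in the cytosol. In droplet sequencing the Mt- share of a barcode is a customary quality measure: barcodes with a high share are often taken for damaged cells, and mature red blood cells, which have cleared their mitochondria, have a share near 0. Circulating T cells are mostly small resting cells marked by the CD3 complex, the adaptor Lat, which relays signals from the T cell receptor, and Tcf7, a transcription factor of naive and memory T cells.

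The size rule kept 11338 barcodes in MSC-i.t, 16998 in MSC-i.v, 8527 in SCI and 10573 in Sham, from libraries of 63133881 to 91124523 UMIs. Between pairs of libraries 239 of these barcodes recurred, no member barcode was a member in another library, and 11 members had a barcode that was kept elsewhere. The SCI library stood apart from the other 3 in T cells of any Mt- share, as the comparison of libraries below shows, and doublets were not called. Of T cells, low-Mt cells made up 2.33% in MSC-i.t (161 of 6906), 1.20% in MSC-i.v (102 of 8473), 3.28% in SCI (182 of 5550) and 3.20% in Sham (176 of 5493).

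Low-Mt T cells came in 2 kinds. Hemoglobin mRNA, which T cells do not make, gave 5% or more of the UMIs of 147 members, termed hemoglobin-rich, and less than that in the other 474, termed hemoglobin-poor. The 5% limit was set after the data had been seen. Of the low-Mt T cells, 24 of 161 (14.9%) were hemoglobin-rich in MSC-i.t, 60 of 102 (58.8%) in MSC-i.v, 35 of 182 (19.2%) in SCI and 28 of 176 (15.9%) in Sham. Among T cells with 2 to 8% Mt- UMIs the shares were 0.694% in MSC-i.t, 1.56% in MSC-i.v, 0.717% in SCI and 0.563% in Sham. In every library the hemoglobin-rich share was thus many times higher on the low-Mt side, and the MSC-i.v library was the only one in which these barcodes outnumbered the hemoglobin-poor members. The Mt- share was taken over all UMIs, hemoglobin included, so many hemoglobin UMIs lower it by arithmetic alone. The part of this in the higher shares was not tested.

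**Figure D1:**
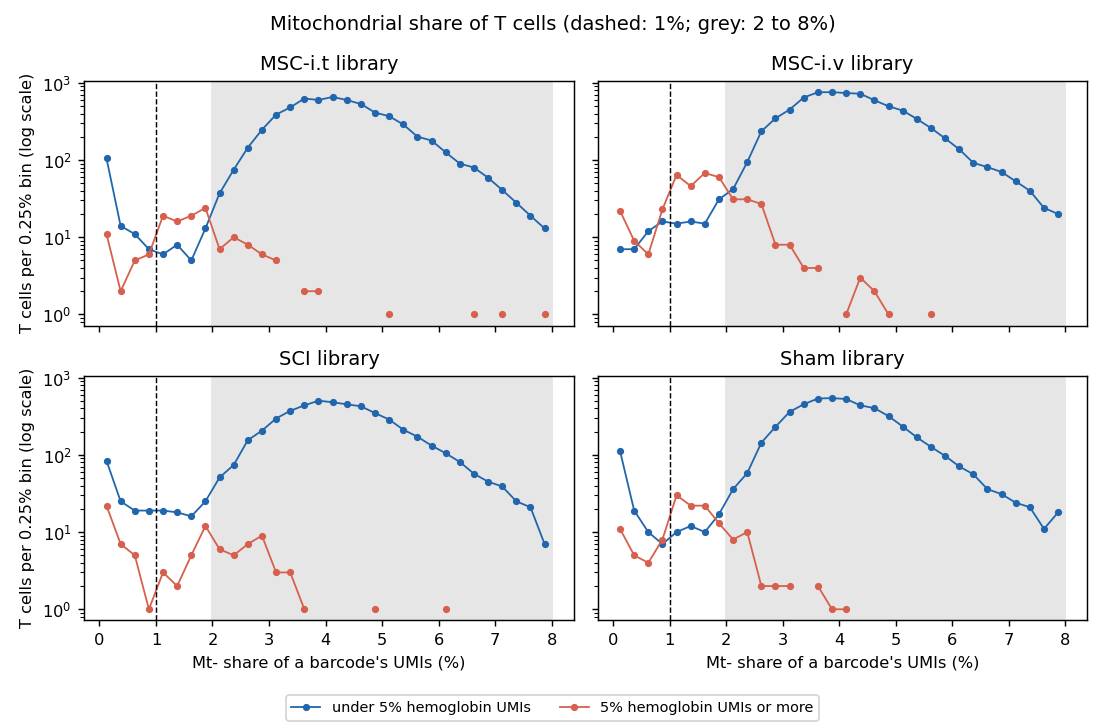
T cells per 0.25% bin of the Mt- share of their UMIs (x axis, %; y axis, number of cells on a log scale) in the 4 libraries, split by hemoglobin UMIs. Hemoglobin-poor T cells form a main body between 2 and 8%, and outside MSC-i.v a separate group in the lowest bin, with 105 cells in MSC-i.t, 7 in MSC-i.v, 84 in SCI and 112 in Sham.

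The hemoglobin-rich barcodes carried more UMIs and less T cell RNA. Their median UMI count was 14266 in MSC-i.t, 9829 in MSC-i.v, 9528 in SCI and 14580 in Sham, against 5034 in MSC-i.t, 2910 in MSC-i.v, 5332 in SCI and 4716 in Sham for hemoglobin-poor members. On the CPM scale, UMIs per 1000000 other than Mt- and hemoglobin, Lat reached 135 in MSC-i.t, 116 in MSC-i.v, 44.8 in SCI and 80.1 in Sham, well below the 344 to 373 CPM of hemoglobin-poor T cells with 2 to 8% Mt- UMIs. A Lat UMI was found in 41.7% of these members in MSC-i.t, 38.3% in MSC-i.v, 14.3% in SCI and 35.7% in Sham. In hemoglobin-rich low-Mt barcodes without a CD3 or B cell UMI it was found in 3.69% to 5.81%, at median depths of 8123 to 11825 UMIs. Ahsp, which encodes the chaperone of alpha-globin, stood at 2207 CPM in MSC-i.t, 2869 in MSC-i.v, 2481 in SCI and 3317 in Sham, against 3164 to 4291 CPM in the barcodes without CD3. These barcodes held erythroid RNA together with some T cell RNA, least of it in SCI for Lat. In SCI their medians were 2 CD3 UMIs, the limit of the rule, and 306 genes, against 290 genes in barcodes without CD3. In MSC-i.t, MSC-i.v and Sham the medians were 4 to 6.5 CD3 UMIs and 827.5 to 1169 genes, against 259 to 317 genes without CD3. Whether these barcodes hold a T cell, or more than 1 cell, was not tested. Barcodes in which hemoglobin made up at least 50% of UMIs were under 1% Mt- in 97.4% to 99.1% of cases.

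Taken over all members, the comparison with 2 to 8% Mt- T cells was led by red cell genes. edgeR's quasi-likelihood test with Benjamini-Hochberg adjustment, on UMI sums per library with the library as a block, called 316 of 9750 genes higher (3.24%) and 247 lower (2.53%) in low-Mt T cells. The highest by the naming rule included Tspan8, Lgals5, Car1, Tinagl1, Ahsp, Cd52, Alas2, Rhd, Tmem86b, Alox15 and Kel, at log2 fold changes of 4.89 to 5.93. Alas2 starts heme synthesis in red cell precursors, and Rhd and Kel encode red cell blood group proteins. All 7 tested members of the erythroid list were higher, with a median log2 fold change of 5.44, against -0.09 over all genes. The lowest were Nf2, Nfkbiz, Kdm7a, Fam65a, Lyz2, Slfn4, Akap8l, Rapgef2, Ganc, Mga, Hist1h1b and Ppp2r3a, at -1.93 to -1.19. Without the SCI library 316 genes were called and without the MSC-i.t library 324, against 563 with all 4. Hemoglobin-rich barcodes were then left out of both groups and hemoglobin genes out of the test, which left 4 erythroid list members. None of the 4 was called, but the filter itself removes barcodes rich in red cell RNA, so nothing is concluded from this. The remaining sections describe these hemoglobin-poor cells.

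Hemoglobin-poor low-Mt T cells were less frequent in MSC-i.v than in the other 3 libraries. They made up 2.03% of hemoglobin-poor T cells in MSC-i.t (137 cells, exact 95% interval 1.70 to 2.39%), 0.522% in MSC-i.v (42 cells, 0.376 to 0.704%), 2.69% in SCI (147 cells, 2.28 to 3.16%) and 2.77% in Sham (148 cells, 2.34 to 3.24%). The share in MSC-i.v was 0.194 times that in SCI (0.134 to 0.274) and 0.188 times that in Sham (0.130 to 0.267). The share in MSC-i.t was 0.752 times that in SCI (0.592 to 0.956) and 0.732 times that in Sham (0.576 to 0.930). SCI stood at 0.973 times Sham (0.769 to 1.23), an interval that includes equal shares. The order of the other 3 libraries depended on the limit: under 0.5% Mt- the shares were 1.76% in MSC-i.t, 0.174% in MSC-i.v, 1.997% in SCI and 2.45% in Sham, and under 0.25% they were 1.55% in MSC-i.t (1.27 to 1.88%), 0.0869% in MSC-i.v (0.0350 to 0.179%), 1.54% in SCI (1.23 to 1.90%) and 2.09% in Sham (1.73 to 2.51%). With 1 library per group, these ratios set libraries and not treatments side by side.

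The scarcity in MSC-i.v was seen in other blood cells as well. Of hemoglobin-poor B cells, 1.67% were under 1% Mt- in MSC-i.t, 0.389% in MSC-i.v, 3.09% in SCI and 3.18% in Sham. Of cells with NK markers (Ncr1 and Klrd1), the shares were 2.42% in MSC-i.t (3 of 124), 0.521% in MSC-i.v (1 of 192), 6.36% in SCI (7 of 110) and 2.75% in Sham (5 of 182). Of cells with monocyte markers (Csf1r and Fcnb), 0.901% were under 1% in MSC-i.t, 0 of 918 in MSC-i.v, 1.98% in SCI and 1.25% in Sham, and the upper exact limit in MSC-i.v was 0.401%. MSC-i.v was the lowest library in each of these 4 classes, although the counting intervals overlap for NK cells and, between MSC-i.v and MSC-i.t, for monocytes.

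**Figure D2:**
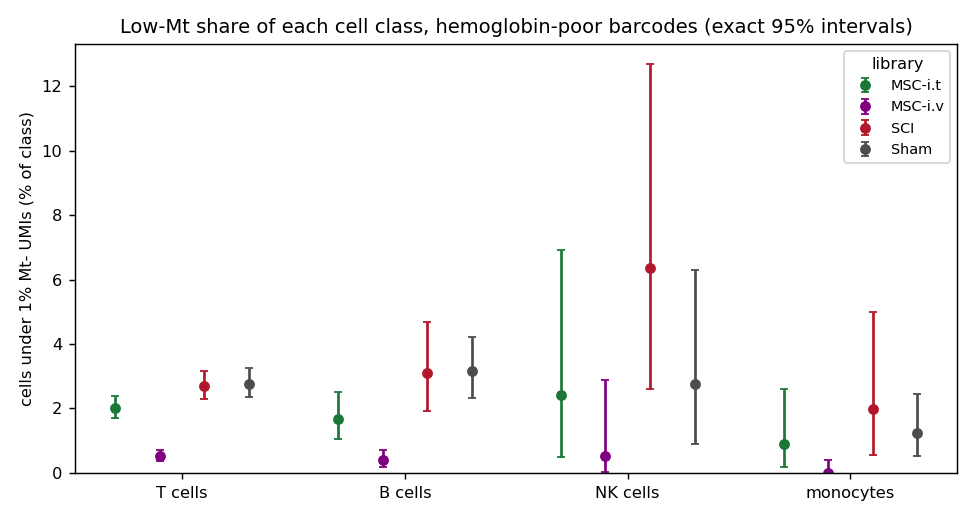
Share of hemoglobin-poor T cells, B cells, NK cells and monocytes with under 1% Mt- UMIs (y axis, % of the class) in each library, with exact 95% intervals. T cells stand at 2.03% in MSC-i.t, 0.522% in MSC-i.v, 2.69% in SCI and 2.77% in Sham, and MSC-i.v is the lowest point in every class.

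Within the members the Mt- share was not spread evenly up to 1%. It was under 0.25% in 105 of 137 hemoglobin-poor members in MSC-i.t, 7 of 42 in MSC-i.v, 84 of 147 in SCI and 112 of 148 in Sham. It was under 0.1% in 85 in MSC-i.t, 3 in MSC-i.v, 48 in SCI and 76 in Sham. The MSC-i.v members were thus not only fewer but sat nearer the 1% limit. At that limit, over the 4 libraries, 72 members lay between 0.8 and 1%, of which 45.8% were hemoglobin-rich, and 128 T cells lay just outside, between 1 and 1.2%, of which 70.3% were hemoglobin-rich.

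The deficit extended over the mitochondrial genes together. Hemoglobin-poor members held on average 8.64 Mt- UMIs per cell in MSC-i.t, 19.4 in MSC-i.v, 17.0 in SCI and 8.03 in Sham, against 270.0 in MSC-i.t, 177 in MSC-i.v, 281 in SCI and 233 in Sham for 2 to 8% cells. Mt-co2, a subunit of cytochrome c oxidase, gave 23.1% to 24.8% of the members' Mt- UMIs and 21.3% to 23.3% of those of 2 to 8% cells. Mt-cox3, another subunit of that complex, gave 20.1% to 22.1% in members and 19.2% to 19.6% in 2 to 8% cells. Mt-nd1, a subunit of complex I, gave 5.1% to 7.3% in members and 8.3% to 9.5% in 2 to 8% cells. Mt-co1, a further oxidase subunit, gave 5.997% in MSC-i.t, 7.26% in MSC-i.v, 7.09% in SCI and 9.18% in Sham in members, against 7.23% in MSC-i.t, 6.98% in MSC-i.v, 8.03% in SCI and 7.68% in Sham. Mt-nd4, of complex I, gave 3.69% to 6.17% in members and 6.58% to 7.13% in 2 to 8% cells, and like Mt-nd1 it was lower in each library. Mt-cyb, of complex III, gave 16.3% in MSC-i.t, 12.5% in MSC-i.v, 15.5% in SCI and 13.8% in Sham in members, against 13.0% in MSC-i.t, 13.0% in MSC-i.v, 12.4% in SCI and 12.3% in Sham, higher in all but MSC-i.v. The Mt- share of free RNA, read from barcodes with 1 to 20 UMIs, was 6.32% in MSC-i.t, 4.01% in MSC-i.v, 5.76% in SCI and 6.11% in Sham. Members under 0.25% held Mt- UMIs at 1.05% of that level in MSC-i.t, 3.21% in MSC-i.v, 1.80% in SCI and 1.30% in Sham.

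The hemoglobin-poor members were nearly as deep as other T cells. Their median UMI counts of 5034 in MSC-i.t, 2910 in MSC-i.v, 5332 in SCI and 4716 in Sham compare with 5741 in MSC-i.t, 3785 in MSC-i.v, 6086 in SCI and 5172 in Sham for 2 to 8% cells. Each cell was also thinned to 1000 UMIs other than Mt-, which left out 1 member in MSC-i.t, 3 in MSC-i.v, 4 in SCI and 8 in Sham. The median number of genes was then 411 in MSC-i.t, 412 in MSC-i.v, 427 in SCI and 430 in Sham for members, against 435 in MSC-i.t, 434 in MSC-i.v, 461 in SCI and 438 in Sham for 2 to 8% cells. The members were lower in each library at equal depth.

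Genes that had no part in the choice marked the members as T cells. Lat stood at 452 CPM in MSC-i.t, 389 in MSC-i.v, 479 in SCI and 422 in Sham in hemoglobin-poor members, against 373 CPM in MSC-i.t, 363 in MSC-i.v, 344 in SCI and 350 in Sham in 2 to 8% cells. B cells of the same libraries had 14.3 to 16.3 CPM. The members were above 2 to 8% cells in all 4 libraries, and the log2 fold change of 0.40 (SE 0.10) had an adjusted p of 0.011 by edgeR. The call was lost without the MSC-i.t library (0.39, adjusted p = 0.34) and without the SCI library (0.31, adjusted p = 0.31). It was also lost without the replicate block (0.39, adjusted p = 0.17), under 0.5% Mt- (0.44, adjusted p = 0.066), under 0.25% (0.44, adjusted p = 0.18), with RNA of other cell types left out (0.28, adjusted p = 0.66) and in thinned cells (0.24, adjusted p = 0.69). A Lat UMI was found in 83.2% of members in MSC-i.t, 59.5% in MSC-i.v, 83.0% in SCI and 77.0% in Sham, against 84.1% in MSC-i.t, 72.0% in MSC-i.v, 85.1% in SCI and 79.6% in Sham of 2 to 8% cells. B cells gave 3.54% to 5.15%, at median depths of 2016 to 3190 UMIs. At 1000 UMIs per cell the shares were 28.2% to 35.3% in members, 29.5% to 30.6% in 2 to 8% cells and 1.49% to 1.81% in B cells.

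Tcf7 had 53.6 CPM in MSC-i.t, 103 in MSC-i.v, 90.8 in SCI and 67.8 in Sham in hemoglobin-poor members, against 50.9 CPM in MSC-i.t, 48.6 in MSC-i.v, 80.8 in SCI and 49.2 in Sham in 2 to 8% cells. Its log2 fold change of 0.43 (SE 0.15) missed the threshold, with an adjusted p of 0.10 by edgeR. Cd3d, which was part of the rule, had 1183 CPM in MSC-i.t, 1114 in MSC-i.v, 1011 in SCI and 1006 in Sham in members, against 979 CPM in MSC-i.t, 939 in MSC-i.v, 881 in SCI and 952 in Sham. UMIs of both the CD4 and the CD8 co-receptor were found. Cd4 had 22.0 to 35.3 CPM in members and 25.5 to 29.7 CPM in 2 to 8% cells, with a log2 fold change of 0.20 (SE 0.21, adjusted p = 0.71, edgeR). Cd8a had 326 to 381 CPM in members and 395 to 440 CPM in 2 to 8% cells, with a log2 fold change of -0.17 (SE 0.11, adjusted p = 0.44, edgeR). Neither co-receptor passed the test, and none of the 12 co-receptor and subset genes or the 16 naive and homing genes did. Summed over the 17 T cell identity genes outside the rule, members had 2887 CPM in MSC-i.t, 2596 in MSC-i.v, 2928 in SCI and 2853 in Sham, against 2919 CPM in MSC-i.t, 2788 in MSC-i.v, 2952 in SCI and 2815 in Sham. The ranges of the members and of the 2 to 8% cells overlap.

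**Figure D3:**
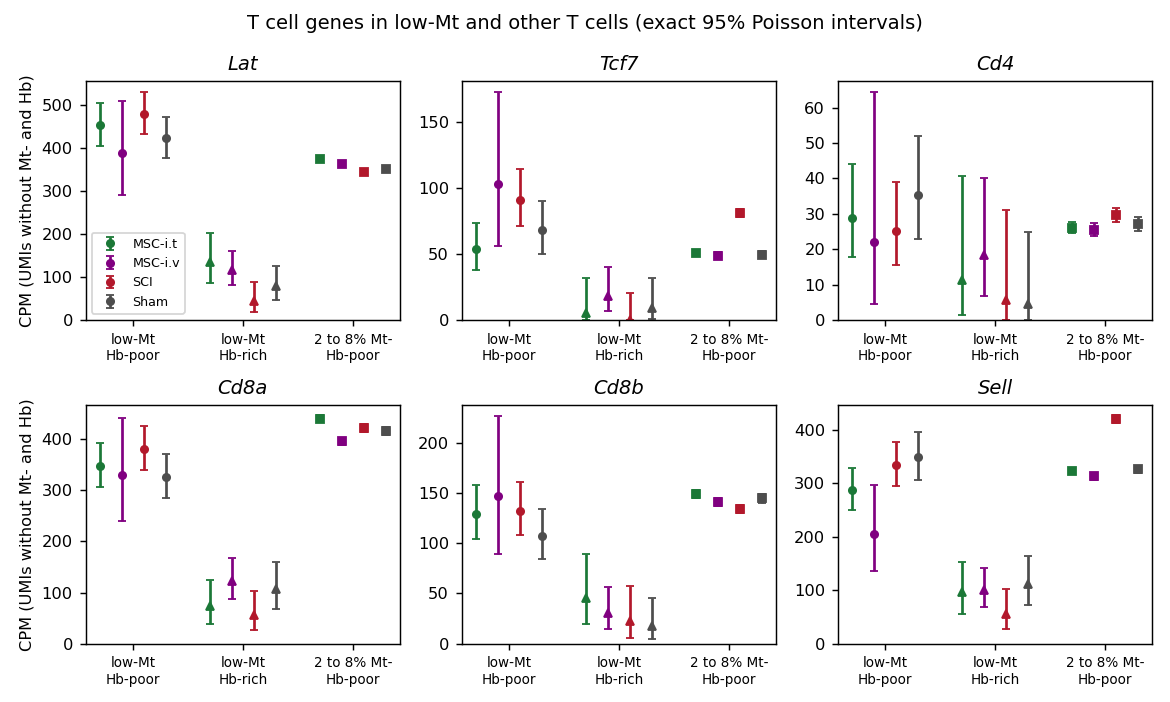
CPM (y axis, UMIs per 1000000 other than Mt- and hemoglobin) of 6 T cell genes in hemoglobin-poor low-Mt, hemoglobin-rich low-Mt and 2 to 8% Mt- hemoglobin-poor T cells, with 1 point per library and exact 95% Poisson intervals. Hemoglobin-poor members lie near the 2 to 8% cells for Cd4 and Cd8b and above them for Lat (389 to 479 against 344 to 373 CPM), and hemoglobin-rich members lie below both.

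Across the transcriptome, hemoglobin-poor low-Mt T cells differed from 2 to 8% cells in few genes, more of them lower than higher by edgeR. edgeR called 46 of 9651 genes higher (0.477%) and 152 lower (1.57%), and the median log2 fold change over all genes was -0.10. The p-values rest on the spread between 4 libraries of different treatment, compared within each library. The balance of the calls differed between alternatives. DESeq2, which changes both test and scaling, called 160 higher and 50 lower, while its size factors in edgeR gave 112 higher and 147 lower. With no TMM scaling 59 were higher and 467 lower, under which the median of all genes lay at -0.21, while DESeq2 put it at 0.02. Without the MSC-i.t library 39 genes were called and without the SCI library 50. All 198 kept their direction in both fits, which is no separate check, as the fits reuse libraries that gave the calls. No gene was called higher without the replicate block, in thinned cells or with RNA of other cell types left out, against 15, 31 and 23 called lower by edgeR in those fits, which gave an unadjusted p under 0.05 for 1318, 650 and 661 genes in either direction.

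The largest decreases by the naming rule were in Kdm7a, a histone demethylase, Ddhd2, a phospholipase, Cspp1, a centrosome and spindle protein, Slfn4, of the Schlafen family, Ganc, a glucosidase, and Epm2aip1, a partner of laforin. They ranged from -1.81 to -1.39 in log2 fold change, each with 7 to 19 UMIs in the members. Akap8l, a nuclear anchoring protein, had 11.0 CPM in MSC-i.t, 22.1 in MSC-i.v, 8.85 in SCI and 21.2 in Sham in members, against 36.7 CPM in MSC-i.t, 36.7 in MSC-i.v, 42.4 in SCI and 35.9 in Sham. The log2 fold change was -1.32 (SE 0.25, adjusted p = 3.6e-05, edgeR). The other genes named by the rule were Hist1h1b, a linker histone (-1.20), Stx16, a syntaxin of the Golgi (-1.17), Gxylt1, a xylosyltransferase that acts on Notch (-1.15), Cradd, a death-domain adaptor (-1.12), and Pnisr, a protein of nuclear speckles (-1.12). In all, 109 of the 152 lower genes met that rule. With each library left out in turn, Akap8l and Pnisr were called every time, and the other 10 lost their call at least once: 9 without MSC-i.t, 8 without SCI, 5 without Sham and 3 without MSC-i.v, at values of -1.93 to -0.87.

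The rule asks for 50 UMIs in the group where a gene is higher, which far fewer genes reach in 474 members than in 23858 cells, so the sizes of named increases and decreases cannot be compared. Among the increases Rtp4, an interferon-induced chaperone of receptors, had 22.1 CPM in MSC-i.t, 44.1 in MSC-i.v, 26.6 in SCI and 24.1 in Sham in members, against 13.4 CPM in MSC-i.t, 27.0 in MSC-i.v, 13.3 in SCI and 15.8 in Sham, a log2 fold change of 0.87 (SE 0.24, adjusted p = 0.022, edgeR). It was higher in each library, although MSC-i.v cells of 2 to 8% Mt- lay above the members of 3 libraries. Tagln2, an actin-binding protein, had 452 CPM in MSC-i.t, 537 in MSC-i.v, 564 in SCI and 405 in Sham in members, against 338 to 372 CPM in 2 to 8% cells, a log2 fold change of 0.52 (SE 0.10, adjusted p = 0.00016, edgeR). The other 10 were Acd, of the telomere cap (0.72), Snrpc, of the U1 splicing particle (0.57), Banf1, which binds DNA and the nuclear lamina (0.54), the lectin Lgals9 (0.51), Med29, of the Mediator complex (0.51), Ifitm2, an interferon-induced membrane protein (0.50), the scaffold Ccm2 (0.48), Lsm7, of the U6 splicing particle (0.47), R3hdm4 (0.46) and Lime1, an adaptor of T cell receptor signalling (0.46). Of the 46 higher genes 35 met the rule. The rule read the sign in each library from log2 ratios with 0.5 added to each count. By CPM alone R3hdm4 was lower in MSC-i.v members, at 95.6 against 99.0 CPM. Each of the 12 lost its call when some library was left out: 11 without MSC-i.t (all but Tagln2), 9 without SCI, 3 without MSC-i.v and 1 without Sham, at values of 0.34 to 0.89.

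**Figure D4:**
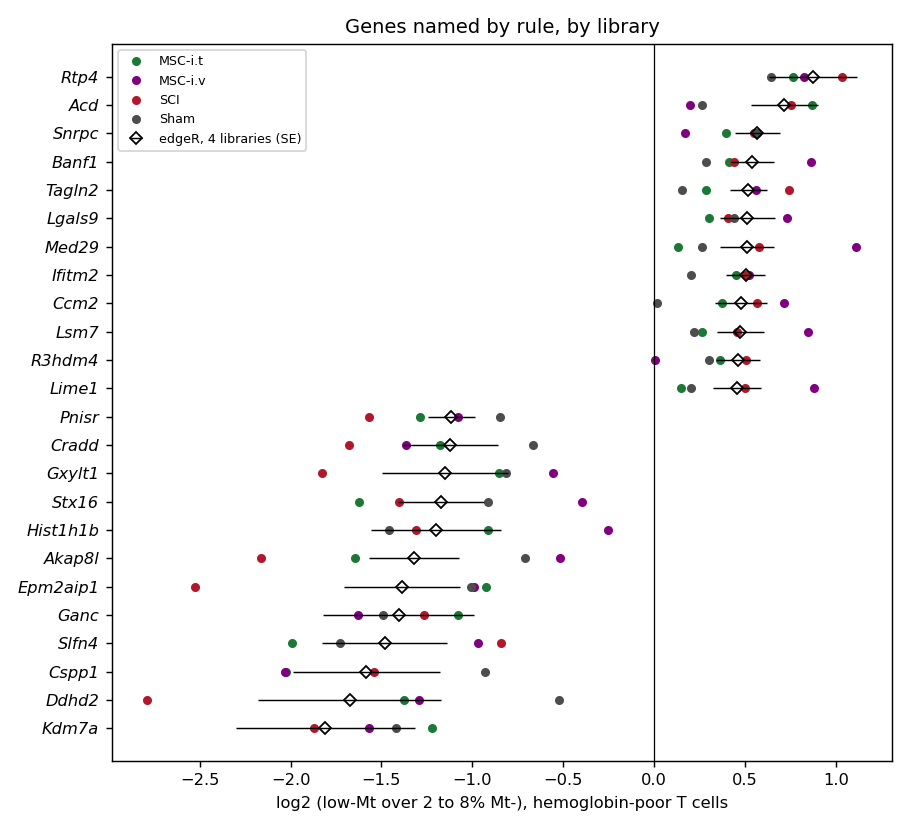
log2 ratio of hemoglobin-poor low-Mt over 2 to 8% Mt- T cells (x axis) for the 24 genes named by the rule, with 1 point per library and the edgeR estimate over 4 libraries with its standard error. The rule required the same sign in each library, read from these points, which have 0.5 added to each count. The edgeR estimates reach -1.81 and 0.87, and single points -2.79 for Ddhd2 in SCI (1 UMI in members) and 1.11 for Med29 in MSC-i.v. The MSC-i.v points of Kdm7a, Ddhd2, Cspp1 and Ganc come from 0 UMIs in members, so the added 0.5 sets their place.

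Among the gene lists, RNAs known to be retained in the nucleus or to encode proteins of nuclear speckles, the compartments that store splicing factors, stood out by their count. Of the 27 RNAs listed, only 15 were in the files and 14 were tested, so the result covers a part of the list. Of these 14, 5 were lower and none higher, a share of 35.7% against 1.57% of all genes. The list median was -0.30 against -0.10. Pnisr had 92.4 CPM in MSC-i.t, 88.2 in MSC-i.v, 80.9 in SCI and 116 in Sham in members, against 227 CPM in MSC-i.t, 194 in MSC-i.v, 242 in SCI and 210 in Sham (log2 fold change -1.12, SE 0.13, adjusted p = 1.8e-14, edgeR). Luc7l3, a splicing factor, had 109 CPM in MSC-i.t, 147 in MSC-i.v, 113 in SCI and 132 in Sham in members, against 218 CPM in MSC-i.t, 211 in MSC-i.v, 249 in SCI and 214 in Sham (-0.79, SE 0.12, adjusted p = 1.1e-07, edgeR). Ogt, the enzyme that attaches O-GlcNAc to proteins, had 56.5 CPM in MSC-i.t, 73.5 in MSC-i.v, 50.6 in SCI and 53.8 in Sham in members, against 99.1 to 119 CPM in 2 to 8% cells (-0.90, SE 0.15, adjusted p = 1.1e-06, edgeR). For these 3 genes, already called on the same sums, the values of members and of 2 to 8% cells did not overlap. How many of all genes do so was not counted. The RNA helicase Ddx17 (-0.65, SE 0.14, adjusted p = 0.0010, edgeR) and the speckle scaffold Son (-0.41, SE 0.11, adjusted p = 0.013, edgeR) were the other 2.

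Members of the list that missed the threshold included Srrm2 at -0.27, Ddx5 at -0.27 and Srsf5 at -0.32, while Srsf7 stood at 0.12. The number of lower members was 8 with no TMM scaling, 3 each without the MSC-i.t library, without the SCI library, without the replicate block and with RNA of other cell types left out, and 2 in cells thinned to 1000 UMIs, where only 13 were tested. Over all genes, lower calls were 467 of 9651 with no TMM scaling, 36 of 9706 without MSC-i.t and 45 of 9689 without SCI. They were 15 of 9651 without the block, 23 of 7791 without other cell types' RNA and 31 of 7348 in thinned cells. Pnisr and Luc7l3 were called in every alternative that was run and Ogt in all but the thinned cells. Ddx17 lost its call without MSC-i.t (-0.65) and without SCI (-0.54), and Son without MSC-i.t (-0.44), MSC-i.v (-0.34) and SCI (-0.37). Both lost it without the replicate block, with RNA of other cell types left out and in thinned cells, and Son also under 0.5% and 0.25% Mt-.

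The summed level of these RNAs also differed between the ends of the Mt- scale. In hemoglobin-poor T cells with under 0.25% Mt- UMIs it was 1665 CPM in MSC-i.t, 1775 in MSC-i.v, 1788 in SCI and 1879 in Sham. At 3 to 5% it was 2394 CPM in MSC-i.t, 2261 in MSC-i.v, 2847 in SCI and 2413 in Sham, and at 8% and above 4139 CPM in MSC-i.t, 3896 in MSC-i.v, 4748 in SCI and 4529 in Sham. The lowest level was under 1% in each library and the highest at 8% and above, where the cells were shallow, with median UMI counts of 1367 to 2029. In Sham the steps between were not in order, with 2511 CPM at 1 to 2% and 2349 CPM at 2 to 3%. The T cell identity genes also rose, from 2742 to 2914 CPM at 3 to 5% to 4019 to 4131 CPM at 8% and above. Cytosolic ribosomal proteins were instead lowest at 8% and above in each library. The part of depth in these patterns was not tested.

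**Figure D5:**
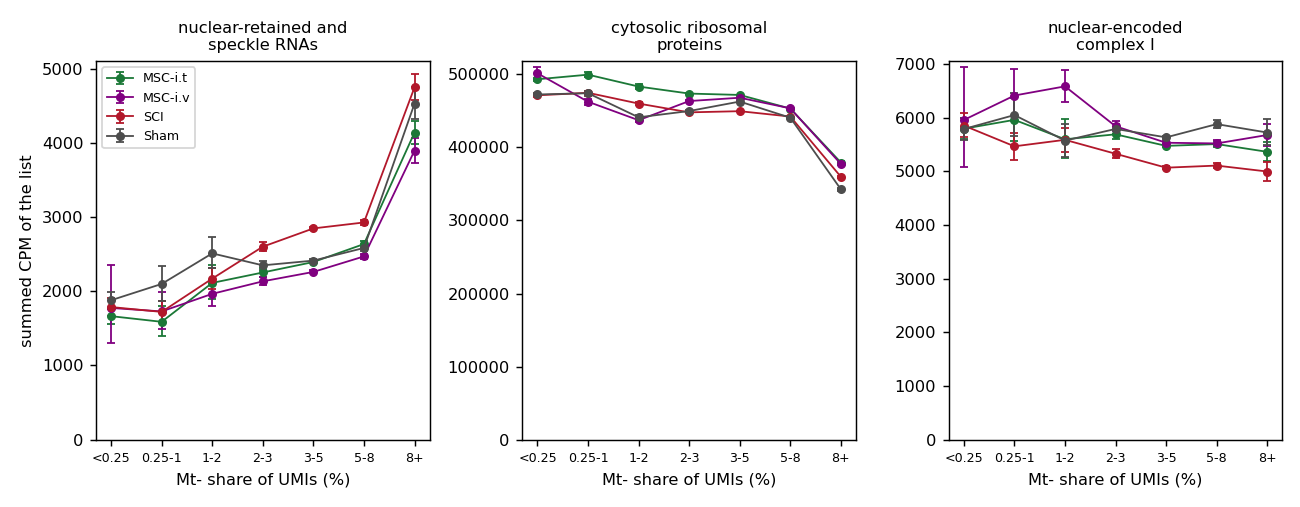
Summed CPM (y axis) of nuclear-retained and speckle RNAs, cytosolic ribosomal protein mRNAs and nuclear-encoded complex I mRNAs in hemoglobin-poor T cells by bin of Mt- share (x axis, %), 1 line per library with exact 95% Poisson intervals. The speckle list is lowest under 1% (1589 to 2099 CPM) and highest at 8% and above (3896 to 4748 CPM), and complex I stays between 4995 and 6581 CPM throughout.

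The nuclear-encoded partners of the missing mitochondrial mRNAs were not lower. None of 34 tested complex I subunits was called in either direction, all 34 lay above 0, and the list median was 0.21 against -0.10 over all genes. Such a median was not particular to the respiratory chain. It was 0.24 for abundant cytosolic mRNAs (18 of 20 above 0), 0.20 for glycolysis (11 of 17) and 0.15 for the proteasome (21 of 23). Other lists lay below 0, such as T cell receptor signalling at -0.18 and naive and homing genes at -0.14. Of 37 subunits of complexes II to V, 2 were higher and none lower, with a median of 0.20. They were Uqcrc1, a core subunit of complex III, with 96.2 to 125 CPM in members and 84.9 to 91.8 CPM in 2 to 8% cells (0.44, SE 0.13, adjusted p = 0.041, edgeR), and Atp5g2, of the ATP synthase ring, with 831 to 924 CPM in members and 675 to 754 CPM in 2 to 8% cells (0.37, SE 0.10, adjusted p = 0.014, edgeR). Both medians stayed above 0 with no TMM scaling, at 0.10 each, and in thinned cells, at 0.05 and 0.09, where 22 of 34 and 27 of 37 members lay above 0. DESeq2 called 16 members of complexes II to V higher, beside 160 of 12310 genes in all. Uqcrc1 lost its call without MSC-i.t (0.42) and without SCI (0.37), and Atp5g2 without MSC-i.t (0.34), SCI (0.33) and Sham (0.38).

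Other mitochondrial genes of the nucleus had few calls, as had all genes, of which 0.477% were higher and 1.57% lower. Of 72 mitochondrial ribosomal proteins none was called. Their median was 0.15 against -0.10 over all genes, with 59 of 72 above 0. Of 28 genes of mitochondrial RNA and DNA upkeep only Fastkd1, of a family of mitochondrial RNA-binding proteins, was lower, with 7.35 to 19.8 CPM in members and 30.3 to 36.3 CPM in 2 to 8% cells (-0.91, SE 0.25, adjusted p = 0.019, edgeR). Ssbp1, which coats single-stranded mitochondrial DNA, had 58.2 to 74.4 CPM in members and 47.8 to 55.3 CPM in 2 to 8% cells and missed the threshold (0.48, SE 0.15, adjusted p = 0.069, edgeR). Of 24 genes of mitophagy and mitochondrial dynamics only Phb2, a prohibitin of the inner membrane, was higher (0.40, SE 0.12, adjusted p = 0.034, edgeR). Both calls were lost without MSC-i.t and without SCI, with Fastkd1 at -0.87 in each fit and Phb2 at 0.38 and 0.40.

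Cytosolic ribosomal proteins had 1 of 87 members lower, Rpl31, and none higher, with a median of 0.15. The count of higher members varied between alternatives, with 27 by DESeq2, 7 with DESeq2 size factors in edgeR and 14 (and 5 lower) with no TMM scaling. Over all genes those fits called 160 of 12310, 112 of 9651 and 59 of 9651 higher, the last with 467 lower. Without the MSC-i.v library 18 were higher and none lower, at a median of 0.23, beside 107 higher and 125 lower of all 9721 genes. In thinned cells the list median was -0.01. Of 20 abundant cytosolic mRNAs Tagln2 and the actin regulator Pfn1 (0.35, SE 0.10, adjusted p = 0.027, edgeR) were higher. Rpl31 (-0.35) lost its call without MSC-i.t (-0.41), MSC-i.v (-0.29) and SCI (-0.22), and Pfn1 without MSC-i.t (0.36), SCI (0.30) and Sham (0.36).

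Among T cell programmes few genes passed. Of the 17 identity genes Lat was higher and Bcl11b, a transcription factor that keeps T cell fate, lower, with 121 to 197 CPM in members and 189 to 226 CPM in 2 to 8% cells (-0.41, SE 0.12, adjusted p = 0.037, edgeR). Of 18 T cell receptor signalling genes only Ptprc, the phosphatase CD45, was lower, with 473 to 685 CPM in members and 763 to 860 CPM in 2 to 8% cells (-0.41, SE 0.10, adjusted p = 0.0069, edgeR). Bcl2, an inhibitor of apoptosis, was the single call among 21 apoptosis genes, with 44.1 to 78.4 CPM in members and 95.4 to 140.0 CPM in 2 to 8% cells (-0.62, SE 0.14, adjusted p = 0.0024, edgeR). Of 18 immediate early genes Jun, a subunit of AP-1 (-1.06, SE 0.23, adjusted p = 0.0010, edgeR), and Zfp36l2, an mRNA-decay factor (-0.46, SE 0.12, adjusted p = 0.017, edgeR), were lower. Of 23 type I interferon genes and 17 glycolysis genes none was called, and of 14 heat shock and stress genes none. Without the MSC-i.t library the calls of all 5 lower genes were lost, at -0.37 for Bcl11b, -0.45 for Ptprc, -0.53 for Bcl2, -0.75 for Jun and -0.32 for Zfp36l2. Without the SCI library those of Bcl11b (-0.30), Ptprc (-0.30) and Zfp36l2 (-0.44) were lost, and without MSC-i.v that of Bcl11b (-0.37).

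Several myeloid and cytotoxic mRNAs were lower in the members. Of 10 monocyte markers Fcnb, Cybb, Lyz2 and Fcgr3a were lower and Cst3 higher, and of 3 tested neutrophil markers S100a8 and S100a9 were lower. The 10 monocyte markers summed to 158 CPM in MSC-i.t, 323 in MSC-i.v, 142 in SCI and 1620 in Sham in members, against 576 CPM in MSC-i.t, 1165 in MSC-i.v, 397 in SCI and 1263 in Sham in 2 to 8% cells. Sham was the exception, and there 660 of the 865 Lyz2 UMIs came from 1 cell. The B cell markers were higher in sum in the members of each library, at 340.2 to 388 CPM in members and 291 to 337 CPM in 2 to 8% cells, with Cd79a at 0 in the members of MSC-i.t, MSC-i.v and Sham. The NK markers summed to 235 CPM in MSC-i.t, 286 in MSC-i.v, 390 in SCI and 579 in Sham in members, against 535 CPM in MSC-i.t, 624 in MSC-i.v, 380 in SCI and 690 in Sham in 2 to 8% cells. The cytotoxic genes Gzmk and Ccl5 and the NK markers Tyrobp and Fcer1g were lower. Lyz2, S100a8 and S100a9 were called with each library left out in turn. Without MSC-i.t the other 8 calls were lost, at -0.62 for Fcnb, -0.67 for Cybb, -3.59 for Fcgr3a, 0.62 for Cst3, -1.26 for Gzmk, -0.40 for Ccl5, -0.57 for Tyrobp and -0.40 for Fcer1g. Without SCI those of Fcnb (-0.57), Cybb (-0.63), Fcgr3a (-2.42) and Cst3 (0.47) were lost, without MSC-i.v those of Fcnb (-0.66) and Cybb (-0.76), and without Sham those of Fcgr3a (-2.25), Cst3 (0.31) and Ccl5 (-0.36). With barcodes that held any UMI of Csf1r, Lyz2, Fcnb, Cd79a, Pf4 or Ppbp left out, 23 genes were called in all, each of them lower, and the values of Ccl5 (0.29), Tyrobp (0.22), Fcer1g (0.37) and S100a8 (0.42) turned positive. Lyz2, S100a8 and S100a9 also lost their calls without the replicate block and in thinned cells.

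Large differences between libraries were in part shared with the 2 to 8% cells of the same libraries. Of the genes past 2-fold between hemoglobin-poor members, 61 of 87 passed it the same way in 2 to 8% cells for SCI over Sham, 72 of 97 for MSC-i.t over SCI and 57 of 120 for MSC-i.v over SCI, but 2 of 22 for MSC-i.t over Sham and 0 of 60 for MSC-i.v over Sham. A gene entered with enough UMIs in either library, so genes that entered through 1 library alone lean towards being higher there. Of 1597 genes with at least 50 UMIs in one of the pair, 67 were at least 2-fold higher (4.2%) and 20 at least 2-fold lower (1.25%) in SCI members than in Sham members. Among the 1243 genes that reached 50 UMIs in both libraries, 6 were higher and 5 lower. Taf10, of the general transcription factor TFIID, had 276 CPM in SCI members against 15.5 CPM in Sham members, a log2 ratio of 4.15 (interval 3.28 to 5.18) beside 3.45 in 2 to 8% cells. For Cdv3 the values were 122 CPM in SCI members and 8.47 CPM in Sham members (3.85, 2.68 to 5.33), with 3.98 in 2 to 8% cells. The kinase Dapk3 had 84.5 CPM in SCI and 2.82 CPM in Sham (4.90, 2.99 to 7.98), and 4.31 in 2 to 8% cells. These 3 genes had the same contrast against MSC-i.t. The fourth, Ccl5, a chemokine of effector T cells, had 198 CPM in SCI and 16.9 CPM in Sham, but 99 of the 157 SCI UMIs came from 1 cell and the ratio was 0.06 in 2 to 8% cells. On the lower side stood Pla2g2a (-2.46, -3.41 to -1.62), Nrgn (-2.33, -3.37 to -1.41), Tyrobp (-2.05) and Lyz2 (-4.43), and the last 2 rest on single Sham cells with 76 of 137 and 660 of 865 UMIs.

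MSC-i.t members set against SCI members had 2 of 1562 genes higher (0.128%) and 95 lower (6.08%). The lower side was led by Cdv3 (-6.48, -11.79 to -3.96), Dapk3 (-4.94, -8.02 to -3.03), Taf10 (-4.84, -6.17 to -3.78) and Alyref, an mRNA export factor (-4.29, -6.61 to -2.68), with -4.64, -4.33, -4.00 and -2.87 in 2 to 8% cells. The highest were Tnrc6a, a microRNA effector (1.10, 0.39 to 1.84), Itm2a (0.86), Cox16 (0.84) and Dnajc1 (0.82), which stood between -0.16 and 0.15 in 2 to 8% cells. Against Sham in place of SCI, 2 of 1429 genes were higher (0.14%) and 20 lower (1.4%). Of the 95 genes lower than in SCI, 80 reached 50 UMIs in SCI alone, and among the 1240 genes that reached it in both libraries none was higher and 15 were lower.

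MSC-i.v members set against SCI members had 10 of 1511 genes higher (0.662%) and 110 lower (7.28%). The 42 MSC-i.v members held far fewer UMIs in all, and 1234 of these genes, among them 109 of the 110 lower ones, reached 50 UMIs in SCI alone. Among the 277 genes that reached it in both libraries 2 were higher and 1 was lower. Mtch1, a mitochondrial outer membrane protein, had 7.33 CPM in MSC-i.v and 135 CPM in SCI (-4.20, -9.52 to -1.69), from 1 and 107 UMIs, and -1.64 in 2 to 8% cells. Snx20, Smap1 and the transcription factor Klf13 were the other lowest genes, at -4.01, -3.82 and -3.70, with -3.08, -2.34 and -2.69 in 2 to 8% cells. On the higher side Ccl5 (1.83) came from 1 cell that held all 96 of its MSC-i.v UMIs, and Pf4, a platelet chemokine (1.54, 0.89 to 2.16), had a like ratio of 1.08 in 2 to 8% cells. Sod1, superoxide dismutase (1.28, 0.51 to 2.01), and Tmsbl1 (1.26, 0.49 to 1.98) completed the list. Against Sham, 7 of 1330 genes were higher (0.526%) and 53 lower (3.98%).

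With hemoglobin-rich barcodes among the members, SCI over Sham had 80 of 1759 genes at least 2-fold higher (4.55%) and 17 lower (0.966%). These all-member ratios use CPM over UMIs other than Mt-, with hemoglobin UMIs kept in the total. MSC-i.t over SCI had 4 of 1701 higher (0.235%) and 95 lower (5.58%), and MSC-i.t over Sham 3 of 1637 higher (0.183%) and 27 lower (1.65%). MSC-i.v over Sham had 23 of 1554 higher (1.48%) and 907 lower (58.4%). Taken over all members, hemoglobin-rich ones included, 33 of 1628 genes were higher (2.03%) and 1079 lower (66.3%) in MSC-i.v than in SCI, and hemoglobin-rich barcodes made up 58.8% of the MSC-i.v members and 19.2% of the SCI members. Over all genes compared, the median log2 ratio was -1.16 for MSC-i.v over SCI and -1.08 for MSC-i.v over Sham. Among hemoglobin-poor members these medians were -0.02 and 0.003. The counts of lower genes thus include a shift of the whole set of genes, and the part of hemoglobin in it was not tested.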

How the data were processed

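Rat blood was profiled by droplet single-cell RNA-seq in 4 libraries. The deposited values are raw UMI counts per gene and barcode for 25340 genes, the output of Cell Ranger 4 (per the file headers), on mRatBN7.2 per the submitters' processing notes. The labels' protocol describes a bulk preparation and was not used; the SCI data carry another time tag than the other 3. Barcodes were filtered and T cells chosen as stated above; doublets were not called. The members and gene lists were chosen with earlier results of these data known, and hemoglobin (5 genes) was split off after seeing the data. Counts were summed per library and Mt- group, without Mt- genes (and hemoglobin genes in hemoglobin-poor cells), and tested with edgeR 4.0.16 (quasi-likelihood, TMM, filterByExpr, library as block; R 4.3.3) at an adjusted p of 0.05. DESeq2 1.42.0 was an alternative; the script was tested on simulated data. Genes named are the 12 highest and 12 lowest called with the same sign in 4 libraries, at least 50 UMIs and UMIs in 5% of cells in the higher group, without ribosomal, receptor-segment and unnamed genes; between libraries the 4 highest and lowest ratios; per list the 2 highest and 2 lowest members with at least 50 UMIs, of which the text gives some. The sign in each library was read from log2 ratios with 0.5 added to each count. Called list members and a few others were named after their values were seen. Between libraries there is no test: shares have exact Clopper-Pearson, CPM exact Poisson and ratios exact conditional 95% intervals, and 0 counts were set to a floor of 3. Alternatives were other scalings, filters, limits on Mt-, UMIs and Cd3, thinning to 1000 UMIs, and each library left out in turn. A further one left out barcodes with other cells' RNA or with over 5% hemoglobin UMIs. One gene named by the rule is not reported here.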

Additional observations from a re-analysis of the deposited data

Results flagged for a closer look

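In 5 genes the ratio of hemoglobin-poor low-Mt over 2 to 8% Mt- T cells had a counting interval above 0 in 1 library and below 0 in another. The difference between libraries was not tested in any of them. Nkg7, a granule protein of cytotoxic cells, had log2 ratios of -1.03 in MSC-i.t, -0.39 in MSC-i.v, 1.16 in SCI and -1.07 in Sham, and 30 of the 63 UMIs of SCI members came from 1 cell. Lyz2, the lysozyme of myeloid cells, stood at -2.52 in MSC-i.t, -2.47 in MSC-i.v, -2.23 in SCI and 0.40 in Sham, where 660 of 865 UMIs came from 1 cell. Pf4, a platelet chemokine, had -1.26 in MSC-i.t, 0.86 in MSC-i.v, 0.40 in SCI and 0.33 in Sham, with 33 UMIs in 13 of 42 MSC-i.v members. Ccl5 had -3.50 in MSC-i.t, 1.69 in MSC-i.v, -0.50 in SCI and -3.99 in Sham, and all 96 UMIs of MSC-i.v members lay in 1 cell. Parp14, an interferon-induced ADP-ribosyltransferase, had -0.74 in MSC-i.t, -0.82 in MSC-i.v, -0.48 in SCI and 0.39 in Sham. The part of single cells in these ratios was not tested.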

How the results depend on the processing

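The number of genes called between all low-Mt and 2 to 8% Mt- T cells, 563, became 298 with DESeq2, 4294 with no TMM scaling, 217 without the library as a replicate block, 309 under 0.5% Mt-, 235 under 0.25%, 23 with barcodes holding RNA of other cell types left out, 96 in thinned cells and 316 to 550 with each library left out. In hemoglobin-poor cells 198 became 526 with no TMM scaling, 15 without the replicate block, 74 under 0.5%, 52 under 0.25%, 23 without other cell types' RNA, 31 thinned and 39 to 232 with each library left out; 15, 30 and 22 of the 198 were called again without the block, thinned and without other cell types' RNA. The members' T cell share at a limit of 0.5% was 1.91% in MSC-i.t, 0.531% in MSC-i.v, 2.49% in SCI and 2.68% in Sham; in hemoglobin-poor cells it was 0.174% in MSC-i.v and 1.997% in SCI. With at least 3 Cd3 UMIs it was 0.882% in MSC-i.v and 2.78% in SCI, and without other cell types' RNA 0.416% in MSC-i.v. Genes past 2-fold in thinned cells, where few reach 50 UMIs, fell to 7 in SCI over Sham, 7 in MSC-i.t over SCI and 67 in MSC-i.v over SCI, and in hemoglobin-poor members to 6, 5 and 7. Without other cell types' RNA they were 58, 54 and 115, and in hemoglobin-poor members 54 in SCI over Sham and 54 in MSC-i.t over SCI. SCI over Sham had 152 with at least 3 Cd3 UMIs. With Sham in place of SCI, MSC-i.t had 30, or 22 in hemoglobin-poor members, and MSC-i.v 60 there. The setting without other cell types' RNA also left out barcodes with over 5% hemoglobin UMIs, and so the hemoglobin-rich members. There the sign turned for Ahsp (-0.47, all members) and, in hemoglobin-poor cells, Tyrobp (0.22), Fcer1g (0.37), Ccl5 (0.29) and S100a8 (0.42). It turned for Psmb6 in thinned cells (-0.0023). Nkg7 ranged from -0.89 without SCI to 0.40 without Sham. The cause of these changes was not tested. Median depth kept its value within its spread in every alternative run for it. One library per group sets the limit: no comparison between treatments has a replicate, few MSC-i.v members (42) carry its values, and rare mRNAs rest on few UMIs.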

Other observations

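Other gene lists moved in single members. Of 23 proteasome subunits only Psmb6 was higher, with 129.6 CPM in MSC-i.t, 147 in MSC-i.v, 172 in SCI and 137 in Sham in hemoglobin-poor low-Mt T cells, against 115 CPM in MSC-i.t, 127 in MSC-i.v, 119 in SCI and 119 in Sham in 2 to 8% cells (log2 fold change 0.41, SE 0.12, adjusted p = 0.039, edgeR). Of 27 genes of the endoplasmic reticulum and secretory pathway only Dad1, a subunit of the oligosaccharyltransferase, was higher, with 279.8 CPM in MSC-i.t, 323 in MSC-i.v, 278 in SCI and 304 in Sham, against 233 CPM in MSC-i.t, 255 in MSC-i.v, 208 in SCI and 242 in Sham (0.44, SE 0.11, adjusted p = 0.0061, edgeR). Of the 7 Gimap genes, GTPases of lymphocyte survival, only Gimap8 was lower (-0.52, SE 0.15, adjusted p = 0.034, edgeR). The calls of all 3 were lost without MSC-i.t (0.44 for Psmb6, 0.45 for Dad1, -0.64 for Gimap8) and without SCI (0.27, 0.38 and -0.37 in that order), and that of Gimap8 also without Sham (-0.53).

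Some rare mRNAs were lower in the 474 hemoglobin-poor members than in the 23858 cells with 2 to 8% Mt- UMIs. Top2a, the topoisomerase of dividing cells and the single call among 17 cell cycle genes, had 1 UMI in the hemoglobin-poor members, in SCI, against 861 UMIs in 2 to 8% cells (adjusted p = 0.0034, edgeR), and lost its call without MSC-i.t (adjusted p = 0.12) and without SCI (adjusted p = 0.11). Irf8, a transcription factor of dendritic and B cells, was lower among 4 plasmacytoid dendritic markers, with 5 UMIs in members against 1318 (adjusted p = 0.010, edgeR), and lost its call without SCI (-1.90) and without Sham (-1.99). Gzmk, a granzyme, had 16 UMIs in members against 3287 in 2 to 8% cells (-1.84, SE 0.33, adjusted p = 8.6e-06, edgeR) and was with Ccl5 one of 2 lower genes among 14 cytotoxic genes, whose median was -0.50. None of the 6 platelet, 6 B cell and 2 plasma cell markers tested was called by edgeR, which gave an unadjusted p under 0.05 for 1435 of all 9651 genes.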
